A study of Mus musculus with 24 samples.

Results

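Genes of the structure and signaling of intestinal tuft cells were followed in RNA from sorted mouse ileal cells. These were 9 of the 39056 genes in the count table: Avil, Espn, Dclk1, Rgs13, Bmx, Sh2d6, Ptpn18, Siglecf and Cd24a. They are known tuft cell genes and were selected on measured values of these CD45- libraries, so the genotype differences of these genes in CD45- cells are given as a description, without a test.

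Whole ileum from C57BL/6 mice (substrain J in the study's methods), with Peyer's patches removed, was dissociated into an epithelial and a lamina propria fraction, part of the epithelial cells was returned to the lamina propria cells, and live CD45+ and CD45- singlets were sorted. CD45 marks hematopoietic cells, so the CD45- sort holds epithelium, endothelium, fibroblasts and muscle together, and no epithelial or tuft cell marker was used in the gate. Each fraction held 3 libraries of each of 4 genotypes, 24 libraries in all, from mice aged 9.0 to 10.3 weeks. The genotypes were Hoil1+/+Il4raf/f, Hoil1+/+Il4raΔIEC, Hoil1-/-Il4raf/f and Hoil1-/-Il4raΔIEC, and all of them carried floxed Il4ra, the gene of the interleukin 4 receptor alpha chain shared by the receptors of interleukins 4 and 13. The ΔIEC mice also carried Cre under the Villin promoter (Vil1cre), which deletes Il4ra in intestinal epithelial cells. Hoil1, whose gene symbol is Rbck1, encodes a subunit of the linear ubiquitin chain assembly complex, and the Hoil1-/- mouse is a model of partial deficiency that still makes a low level of the N-terminal part of the protein. Replicate numbers only name the libraries. The labels tie no library to a mouse, while the legend of a study plot that includes CPM of CD45+ cells gives its symbols as individual mice, and p-values measure the spread between these libraries.

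Of the 24 libraries, 3 that the study removed as outliers were kept out of the fits: replicate 3 of Hoil1-/-Il4raf/f in CD45- cells, and, in CD45+ cells, replicate 1 of Hoil1-/-Il4raf/f and replicate 3 of Hoil1-/-Il4raΔIEC. Their values are printed beside those of the other libraries. Total counts ran from 6028275 to 68345191 in CD45- libraries and from 14938629 to 76807504 in CD45+ libraries, and levels are given as CPM, counts per 1000000 counts of the library.

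Tuft cells are rare chemosensory cells of the epithelium with a tuft of long, rigid microvilli on bundled actin. They sense luminal metabolites through a taste-like cascade, release interleukin 25, leukotrienes and acetylcholine, and in the small intestine form a circuit with type 2 innate lymphoid cells, whose interleukin 13 acts on epithelial progenitors through Il4ra to raise tuft and goblet cell numbers. The 9 genes cover the structural side (Avil, Espn and Dclk1), intracellular signaling (Rgs13, Bmx, Sh2d6 and Ptpn18) and the cell surface (Siglecf and Cd24a). In bulk RNA, fewer cells of a type and less RNA per cell cannot be told apart.

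The labels were first checked against the targeted genes. In CD45- cells Rbck1 lay between 70.9 and 131 CPM in the 6 Hoil1+/+ libraries and between 0 and 8.71 CPM in the 6 Hoil1-/- libraries, and in CD45+ cells between 54.0 and 169 and between 3.67 and 15.5 CPM. Rbck1 was lower in Hoil1-/- CD45- cells by a log2 fold change of -4.26 ± 0.50 (SE) in the f/f background (adjusted p = 0.0188, edgeR quasi-likelihood test) and of -4.20 ± 0.42 in the ΔIEC background (adjusted p = 0.0115, edgeR). The Il4ra count did not separate the Il4ra genotypes in CD45- cells: it was 64.2, 187 and 109 CPM in Hoil1+/+Il4raf/f and 42.0, 51.5 and 149 CPM in Hoil1+/+Il4raΔIEC libraries. That count sums the whole gene over all CD45- cell types, so the epithelial deletion was not checked by it. The fitted Il4ra log2 fold change of ΔIEC over f/f was -0.40 ± 0.46 (SE) in Hoil1+/+ and 0.44 ± 0.52 in Hoil1-/- CD45- cells. Ptprc, the gene of CD45, was at 180 to 845 CPM in CD45+ libraries and at 0 to 16.3 CPM in CD45- libraries, with its highest CD45- values, 10.7 and 16.3 CPM, in replicates 1 and 2 of Hoil1-/-Il4raf/f. The part of these few CD45 transcripts in the values below was not tested.

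The CD45- libraries differed in cell makeup. The summed CPM of 10 general epithelial genes (Epcam and keratins among them) was 13208 and 12113 in replicates 1 and 2 of Hoil1-/-Il4raf/f and 4466 in its replicate 3. It was 8523, 2496 and 4462 in Hoil1+/+Il4raf/f, 10811, 9341 and 4175 in Hoil1+/+Il4raΔIEC, and 3513, 1603 and 7691 in Hoil1-/-Il4raΔIEC libraries. The 2 libraries of Hoil1-/-Il4raf/f in the fits thus had the highest epithelial sums of the fraction. In them 10 endothelial genes summed to 2465 and 4685 CPM, against 16674, 19831 and 7731 CPM in Hoil1-/-Il4raΔIEC. The endothelial sums of Hoil1+/+ libraries, 4319, 16431 and 10355 CPM (f/f) and 3921, 3933 and 15398 CPM (ΔIEC), overlapped with those of the pair. The part of this makeup in the differences below was not tested, and levels relative to Epcam are therefore given as well.

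Promoter sequences of the members were searched for the octamer motif of POU factors, since Pou2f3 is the lineage factor of tuft cells, and for the palindrome bound by STAT6, which signals downstream of Il4ra. RefSeq promoters (GRCm38.p6, 250 bases before to 50 after the start) were found for 8 of the 9 genes, 11 promoters in all, and not for Cd24a. On both strands, the full octamer ATGCAAAT was in none of the 11 and in 1.74% of 32851 promoters of all genes. Its first 7 bases, ATGCAAA, which every full octamer also contains, were in 1 member promoter, that of Avil, and in 4.63% of all promoters. The STAT6 palindrome TTCNNNNGAA was in 1 of the 2 Dclk1 promoters and in 6.95% of all promoters. A match is a run of letters and not a shown binding site. Printed here are 3 sequences, those of Avil and Dclk1 because they hold the matches (in capitals) and that of Sh2d6 because its mean CPM was far higher in Hoil1-/-Il4raf/f libraries and its window holds none of these motifs.
Avil, chr10:127000459-127000758, plus strand: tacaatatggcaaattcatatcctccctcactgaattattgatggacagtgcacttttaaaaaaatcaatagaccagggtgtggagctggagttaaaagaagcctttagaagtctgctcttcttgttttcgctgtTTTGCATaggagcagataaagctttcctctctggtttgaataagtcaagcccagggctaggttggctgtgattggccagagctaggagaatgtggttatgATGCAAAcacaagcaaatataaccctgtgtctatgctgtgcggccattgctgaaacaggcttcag
Dclk1, chr3:55242114-55242413, plus strand: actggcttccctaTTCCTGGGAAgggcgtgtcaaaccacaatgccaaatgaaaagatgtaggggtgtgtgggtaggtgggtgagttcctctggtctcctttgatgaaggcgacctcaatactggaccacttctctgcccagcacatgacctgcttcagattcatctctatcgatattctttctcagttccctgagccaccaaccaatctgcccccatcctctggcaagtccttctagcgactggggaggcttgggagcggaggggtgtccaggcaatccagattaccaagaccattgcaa
Sh2d6, chr6:72519987-72520286, minus strand: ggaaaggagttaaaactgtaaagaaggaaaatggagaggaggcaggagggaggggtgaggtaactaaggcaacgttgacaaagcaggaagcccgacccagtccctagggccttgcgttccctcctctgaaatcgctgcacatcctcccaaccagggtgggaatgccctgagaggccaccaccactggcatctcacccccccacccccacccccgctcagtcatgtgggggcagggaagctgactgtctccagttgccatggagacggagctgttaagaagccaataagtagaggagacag
The Avil matches begin 115 and 15 bases before the start (positions -115 and -15), the first on the reverse strand, and the Dclk1 match begins at position -237.

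Of the 9 members, 7 were higher in both listed Hoil1-/-Il4raf/f libraries of CD45- cells than in each of the other 9 listed libraries, and Espn and Bmx were not. Of 13927 genes with a mean of at least 1 CPM, 3.68% met the same condition, and the members were chosen for such values, so nothing is read from their count. All 9 members had a positive fitted log2 fold change between Hoil1-/- and Hoil1+/+ in the f/f background, with a median of 2.74, beside 41.6% of all 16453 genes tested and a median of -0.17. Relative to Epcam 7 of 9 were positive there, with a median of 1.44, and Bmx and Cd24a were negative. In the ΔIEC background 6 of 9 were positive, with a median of 0.07 beside 0.06 over all genes. That median moved to 0.51 without replicate 2 of Hoil1-/-Il4raΔIEC, and relative to Epcam it was 1.77 with 8 of 9 positive. Epcam itself had a fitted difference of -1.24 ± 0.56 (log2, SE) in the ΔIEC background, which raises every gene alike on that scale. No call is given for the members. Over all genes tested in the f/f background, edgeR called 0.0365% at an adjusted p under 0.05, and 0.0304% as higher in Hoil1-/-.

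Avil (chromosome 10, 127000709 to 127020994, plus strand) encodes advillin, an actin-bundling protein of the villin family and among the most specific tuft cell genes. Avil was at 142 and 203 CPM in Hoil1-/-Il4raf/f CD45- replicates 1 and 2 and at 8.19 CPM in the left-out replicate 3. In Hoil1+/+Il4raf/f it was at 4.73, 8.26 and 22.1 CPM, in Hoil1+/+Il4raΔIEC at 8.16, 4.58 and 10.9 CPM, and in Hoil1-/-Il4raΔIEC at 14.3, 9.33 and 14.4 CPM. The first pair of libraries stood at least 6.43 times above the highest of the other 9 listed libraries, while the 3 remaining genotypes and the left-out library overlapped. The fitted difference between Hoil1-/- and Hoil1+/+ was 4.20 ± 0.54 (log2, SE) in the f/f background and 0.49 ± 0.47 in the ΔIEC background. Exons of Avil share 165 bp (4.86% of their length) with the opposite-strand gene Tsfm, which reached 29.8 CPM at most in CD45- libraries.

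Dclk1 (chromosome 3, 55242364 to 55539068, plus strand) encodes a microtubule-binding kinase that is the usual antibody marker of tuft cells. It was at 64.3, 96.2 and, in the left-out replicate, 27.0 CPM in Hoil1-/-Il4raf/f. The Hoil1+/+Il4raf/f libraries had 15.1, 11.2 and 31.7 CPM, so the left-out library fell inside their range and the other pair above it. Hoil1+/+Il4raΔIEC libraries had 4.12, 11.3 and 11.5 CPM and Hoil1-/-Il4raΔIEC libraries 19.6, 9.77 and 18.9 CPM, which overlap. The log2 difference was 2.36 ± 0.51 in the f/f and 0.66 ± 0.47 in the ΔIEC background.

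Espn (chromosome 4, 152120331 to 152152371, minus strand) encodes espin, an actin-bundling protein of microvilli that is made in brush borders of absorptive cells as well as in tuft cells. Espn was at 497 and 470 CPM in Hoil1-/-Il4raf/f and at 44.5 CPM in its left-out replicate. Hoil1+/+Il4raf/f libraries had 196, 17.2 and 37.6 CPM, Hoil1+/+Il4raΔIEC libraries 385, 512 and 35.1 CPM, and Hoil1-/-Il4raΔIEC libraries 25.0, 13.6 and 226 CPM. Values thus spread widely inside every genotype, and the highest of all was a Hoil1+/+Il4raΔIEC library. The log2 difference was 2.74 ± 1.37 in the f/f and -2.10 ± 1.27 in the ΔIEC background. The 6 libraries with the most Espn (196 CPM or more, the next at 44.5) were the same 6 with the most enterocyte RNA, where 10 enterocyte genes summed to 14756 CPM or more, the next library having 2478. The part of enterocyte content in the Espn difference was not tested.

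**Figure D1:**
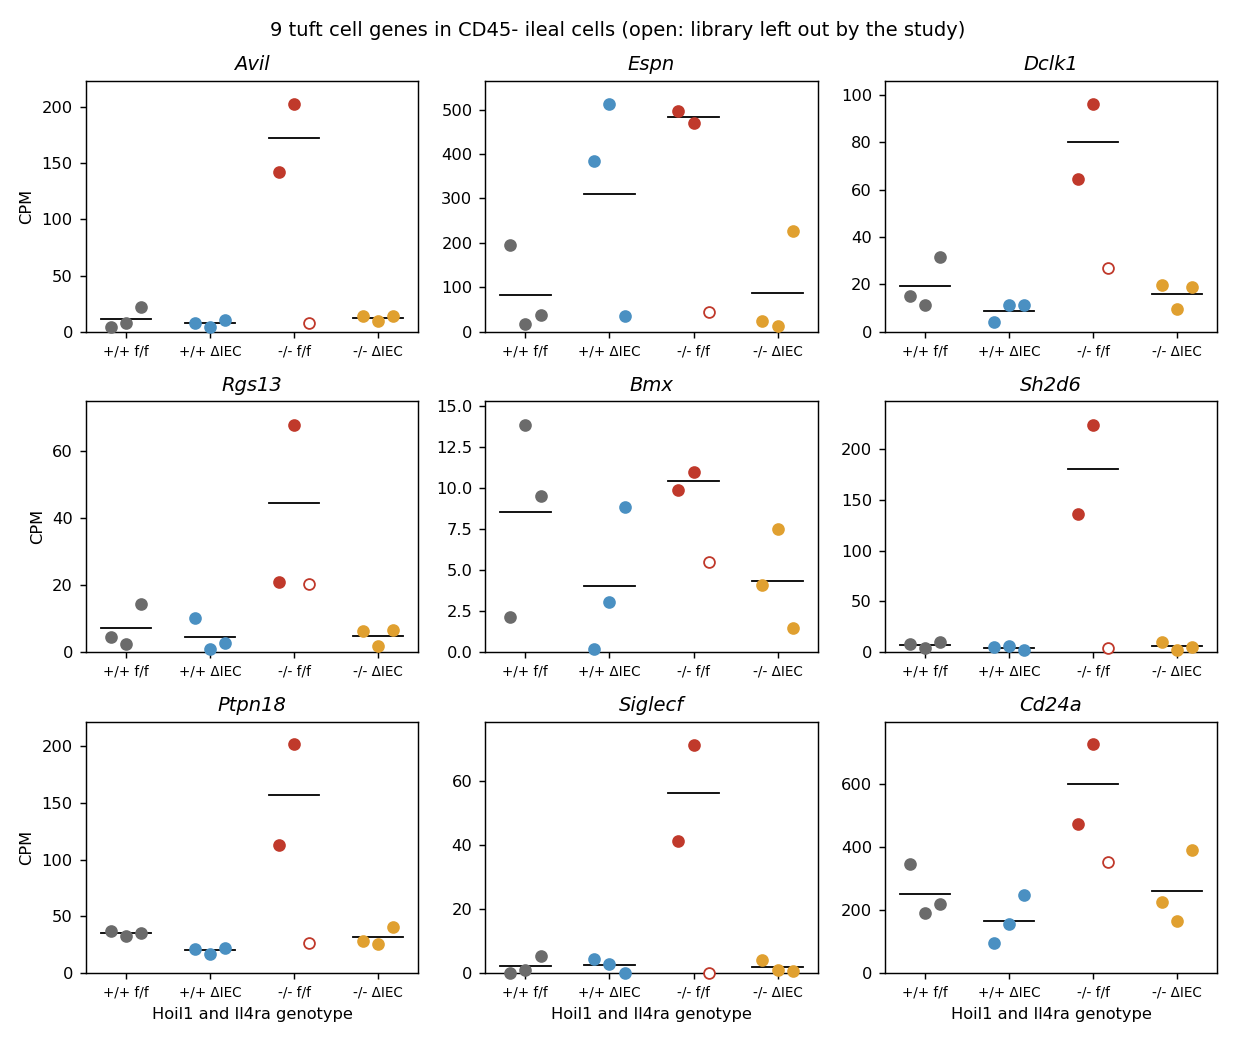
CPM of the 9 genes (y axis, linear from 0) in CD45- libraries of the 4 genotypes (x axis, Hoil1 then Il4ra). Points are libraries, open points the library left out of the fits, and bars the mean of filled points. Replicates 1 and 2 of Hoil1-/-Il4raf/f stand above all other filled points in every panel but those of Espn and Bmx.

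Among the signaling genes, Sh2d6 (chromosome 6, 72513641 to 72521707, minus strand), which encodes an SH2 domain adaptor, differed most. It was at 136 and 224 CPM in Hoil1-/-Il4raf/f and at 4.43 CPM in the left-out replicate. The other 9 libraries lay between 1.82 and 10.5 CPM, with 7.89, 4.27 and 10.1 CPM in Hoil1+/+Il4raf/f, 5.22, 6.06 and 2.44 CPM in Hoil1+/+Il4raΔIEC and 10.5, 1.82 and 4.81 CPM in Hoil1-/-Il4raΔIEC. The lower of the first pair was thus 13.03 times the highest of those 9, and no other genotype stood apart. The log2 difference was 4.89 ± 0.72 in the f/f and 0.07 ± 0.62 in the ΔIEC background.

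Rgs13 (chromosome 1, 144138654 to 144177372, minus strand) encodes a regulator that shortens G protein signaling and is also known from germinal center B cells and mast cells. It was at 20.8, 67.7 and, in the left-out replicate, 20.4 CPM in Hoil1-/-Il4raf/f. Hoil1+/+Il4raf/f libraries had 4.45, 2.38 and 14.4 CPM, Hoil1+/+Il4raΔIEC libraries 10.1, 1.11 and 2.84 CPM, and Hoil1-/-Il4raΔIEC libraries 6.32, 1.82 and 6.63 CPM. Rgs13 was the member, along with Cd24a, for which the left-out library also exceeded every Hoil1+/+ CD45- library. The log2 difference was 2.97 ± 1.00 in the f/f and -0.21 ± 0.91 in the ΔIEC background. Of germinal center B cell genes, Gcsam was at 0 in all 12 CD45- libraries and at 0.937 to 23.9 CPM in CD45+ libraries, Mef2b was at 0 in all libraries of both fractions, and Bcl6 was at 7.42 to 31.1 CPM in CD45- libraries.

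Ptpn18 (chromosome 1, 34459762 to 34475733, plus strand) encodes a PEST-type tyrosine phosphatase. It was at 113 and 202 CPM in Hoil1-/-Il4raf/f and at 26.1 CPM in the left-out replicate. Its Hoil1+/+Il4raf/f libraries were close to each other, at 37.0, 32.5 and 34.8 CPM. Hoil1+/+Il4raΔIEC libraries had 21.3, 16.1 and 21.9 CPM. Hoil1-/-Il4raΔIEC libraries had 28.2, 25.4 and 39.98 CPM, all above the Hoil1+/+Il4raΔIEC libraries and overlapping with Hoil1+/+Il4raf/f. The log2 difference between Hoil1 genotypes was 2.44 ± 0.34 in the f/f and 0.45 ± 0.31 in the ΔIEC background. Its exons share 492 bp (7.58%) with the opposite-strand transcript Gm28417, which reached 2.10 CPM.

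Bmx (chromosome X, 164192842 to 164258193, minus strand) encodes a TEC family tyrosine kinase known from arterial endothelium and from tuft cells. It was at 9.92, 10.99 and, in the left-out replicate, 5.51 CPM in Hoil1-/-Il4raf/f and at 2.15, 13.9 and 9.54 CPM in Hoil1+/+Il4raf/f, which overlap. Hoil1+/+Il4raΔIEC libraries had 0.183, 3.09 and 8.88 CPM and Hoil1-/-Il4raΔIEC libraries 4.10, 7.51 and 1.49 CPM. Bmx was the member with the smallest difference in the f/f background (log2 0.59 ± 1.12), and in the ΔIEC background the difference was 0.01 ± 1.02. The endothelial sum was 2465 and 4685 CPM in the first pair of libraries, and 6 arterial endothelial genes summed to 132 and 198 CPM there, against 277, 831 and 552 CPM in Hoil1+/+Il4raf/f. The arterial sum of the left-out library was 481 CPM, inside that range, and the endothelial sums of the pair overlapped with the 4319, 16431 and 10355 CPM of Hoil1+/+Il4raf/f. The Bmx values of the Hoil1-/-Il4raf/f pair lay inside the range of Hoil1+/+Il4raf/f libraries. The part of endothelial content in Bmx was not tested.

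**Figure D2:**
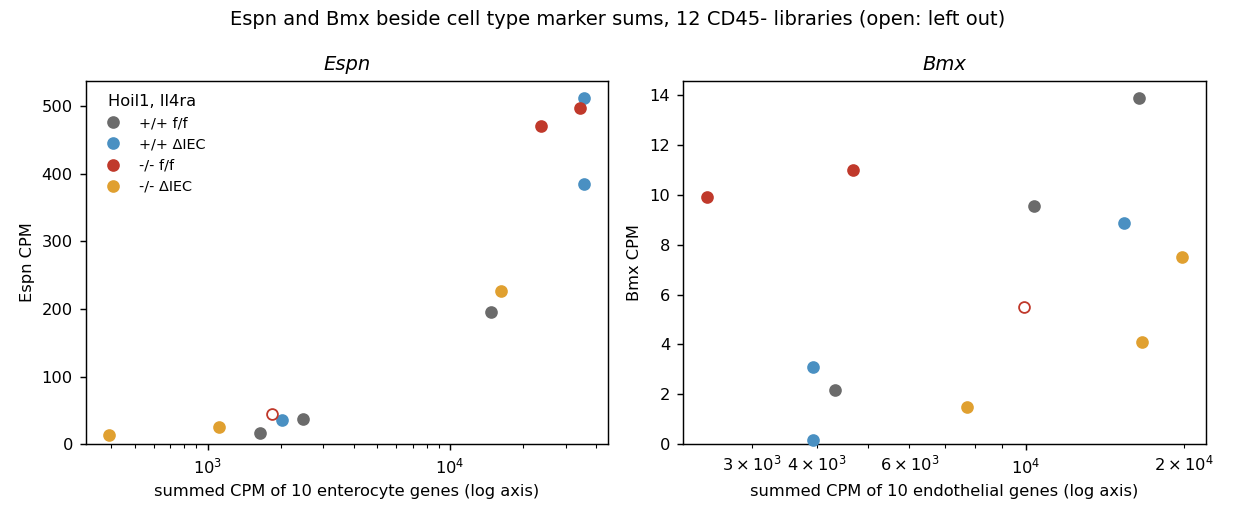
Left, Espn CPM (y axis) against the summed CPM of 10 enterocyte genes (x axis, log); right, Bmx CPM against the summed CPM of 10 endothelial genes (x axis, log). Each point is 1 of 12 CD45- libraries, coloured by genotype and open where left out of the fits; Espn is at or above 196 CPM in the 6 libraries with the largest enterocyte sums, and the 2 filled red points at the left of the Bmx panel are Hoil1-/-Il4raf/f.

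At the cell surface, Siglecf (chromosome 7, 43351341 to 43359531, plus strand), a sialic acid-binding lectin made by eosinophils and by small intestinal tuft cells, was at 41.2 and 71.0 CPM in Hoil1-/-Il4raf/f CD45- cells. It was at 0 in the left-out replicate, where a count of 0 allows up to 0.403 CPM (3 counts, counting error only). Hoil1+/+Il4raf/f libraries had 0, 0.756 and 5.14 CPM, Hoil1+/+Il4raΔIEC libraries 4.12, 2.85 and 0 CPM, and Hoil1-/-Il4raΔIEC libraries 3.93, 0.711 and 0.498 CPM. The first pair lay at least 8.01 times above the highest of the other 9, which overlapped among themselves. The log2 difference was 5.14 ± 1.80 in the f/f and -0.71 ± 1.55 in the ΔIEC background. Siglecf is also an eosinophil gene. Of 7 other eosinophil genes, Epx, Prg3, Ear2, Ccr3 and Il5ra were at 0 in all 12 CD45- libraries (Epx in all 12 CD45+ libraries too), the most abundant, Prg2, reached 2.59 CPM, and the 7 summed to 0 and 2.59 CPM in the pair of libraries with the most Siglecf. The part of eosinophils in Siglecf of CD45- cells was not tested.

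Cd24a (chromosome 10, 43578284 to 43584265, plus strand) encodes a small glycosylated surface protein found on crypt epithelium, tuft cells, enteroendocrine cells and B cells. It was at 472, 729 and, in the left-out replicate, 352 CPM in Hoil1-/-Il4raf/f and at 346, 190 and 219 CPM in Hoil1+/+Il4raf/f. Hoil1+/+Il4raΔIEC libraries had 94.8, 154 and 247 CPM and Hoil1-/-Il4raΔIEC libraries 226, 165 and 389 CPM. The margin was small here, since the lower of the pair was 1.21 times the highest of the other 9. The log2 difference was 1.503 ± 0.472 in the f/f and 0.51 ± 0.43 in the ΔIEC background, and relative to Epcam it was -0.096 and 1.77. The 5 B cell genes, Cd79a the most abundant, summed to 0.324 to 11.9 CPM in CD45- libraries. The highest sums, 10.5 and 11.9 CPM, were in replicates 1 and 2 of Hoil1-/-Il4raf/f. The next was 7.46 CPM in a Hoil1+/+Il4raf/f library, and the left-out replicate had 3.22 CPM. The part of B cells in Cd24a of CD45- cells was not tested.

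**Figure D3:**
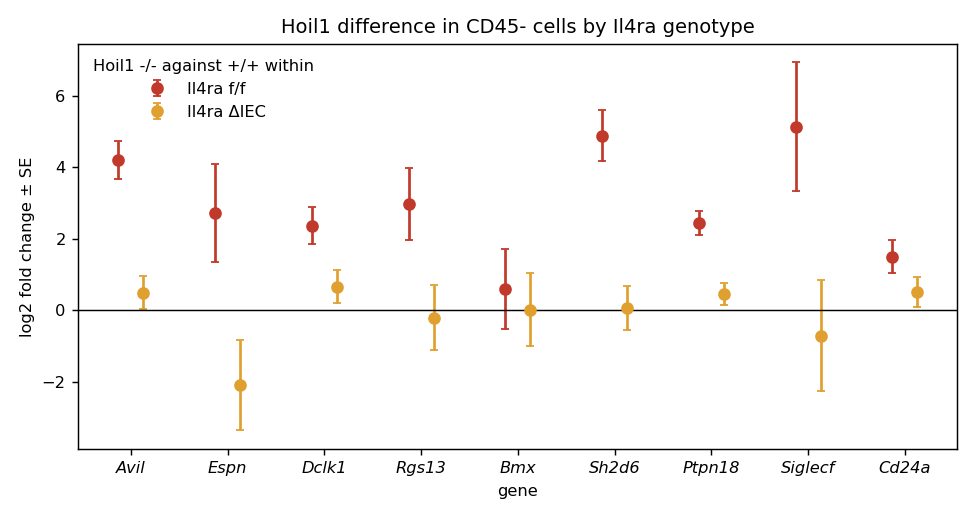
Fitted log2 fold change ± SE (y axis) of each gene (x axis) between Hoil1-/- and Hoil1+/+ CD45- libraries, in the Il4ra f/f (2 against 3 libraries) and ΔIEC background (3 against 3). In the f/f background Siglecf, Sh2d6 and Avil lie highest and Bmx lowest, and in the ΔIEC background most lie near 0 and Espn lies at -2.10.

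Per length, Cd24a had the highest group mean of the members in CD45- cells of every genotype, although in Hoil1+/+Il4raΔIEC it overlapped with Espn (64.0 ± 29.7 and 37.6 ± 29.9 CPM per kb of exon, SD, n = 3), which was higher than Cd24a in replicates 1 and 2. Cd24a was at 97.5 ± 32.2 CPM per kb (SD, n = 3) in Hoil1+/+Il4raf/f and 233 ± 70.3 (SD, n = 2) in Hoil1-/-Il4raf/f. In Hoil1+/+Il4raf/f, Espn, Ptpn18, Sh2d6, Rgs13, Avil and Bmx followed at 10.1 to 2.76 CPM per kb, neighbours that did not differ beyond their spread, with Dclk1 at 1.26 ± 0.71 and Siglecf at 0.704 ± 0.994. In Hoil1-/-Il4raf/f, Sh2d6 stood second with 107 ± 36.6 CPM per kb (SD, n = 2), before Espn (58.5 ± 2.29) and Avil (50.7 ± 12.7), and Bmx was last at 3.38 ± 0.24.

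Relative to Epcam, the count of a general epithelial surface protein, fewer members set Hoil1-/-Il4raf/f apart. Avil had 10.7 and 17.05 counts per 100 Epcam counts in its replicates 1 and 2 and 0.514 to 4.79 in the other 9 listed libraries, Sh2d6 had 10.3 and 18.8 against 0.440 to 2.45, and Siglecf had 3.11 and 5.97 against 0 to 0.991. The left-out replicate 3 had 1.49 (Avil), 0.804 (Sh2d6) and 0 (Siglecf), inside the range of those 9. On this scale these 3 did not overlap with the other libraries, as was the case for 0.646% of the 13927 genes. Dclk1 (4.86 and 8.09 against 0.366 to 6.11), Rgs13 (1.57 and 5.70 against 0.125 to 2.78), Ptpn18 (8.54 and 16.98 against 1.80 to 13.01) and Cd24a (35.7 and 61.3 against 8.40 to 84.5) overlapped. With members taken relative to Epcam, the median log2 difference between Hoil1 genotypes was 1.44 in the f/f and 1.77 in the ΔIEC background, and the members went different ways. The difference was larger in f/f for 4 of 9, Avil (2.78 against 1.84), Sh2d6 (3.27 against 1.19), Espn (1.90 against -1.06) and Siglecf (4.99 against 2.51, values that depend on the 0.5 added to each count because some libraries were at 0). It was larger in ΔIEC for the other 5, namely Dclk1 (0.80 against 2.02), Bmx (-0.71 against 2.08), Ptpn18 (0.75 against 1.74), Cd24a (-0.096 against 1.77) and Rgs13 (1.44 against 1.504). Replicates 1 and 2 of Hoil1+/+Il4raΔIEC had the highest Epcam of the Hoil1+/+ libraries, at 1128 and 891 CPM, and the 3 Hoil1-/-Il4raΔIEC libraries had 428, 195 and 680 CPM. In the fits, Epcam itself was higher in Hoil1-/- cells in the f/f background and lower in the ΔIEC background. Its interaction term was -2.74 ± 0.82 (log2, SE). Taking counts relative to Epcam thus moves every gene alike towards a larger ΔIEC difference. Nothing is therefore read from the split of 4 and 5 members, and the Rgs13 values lay close together.

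**Figure D4:**
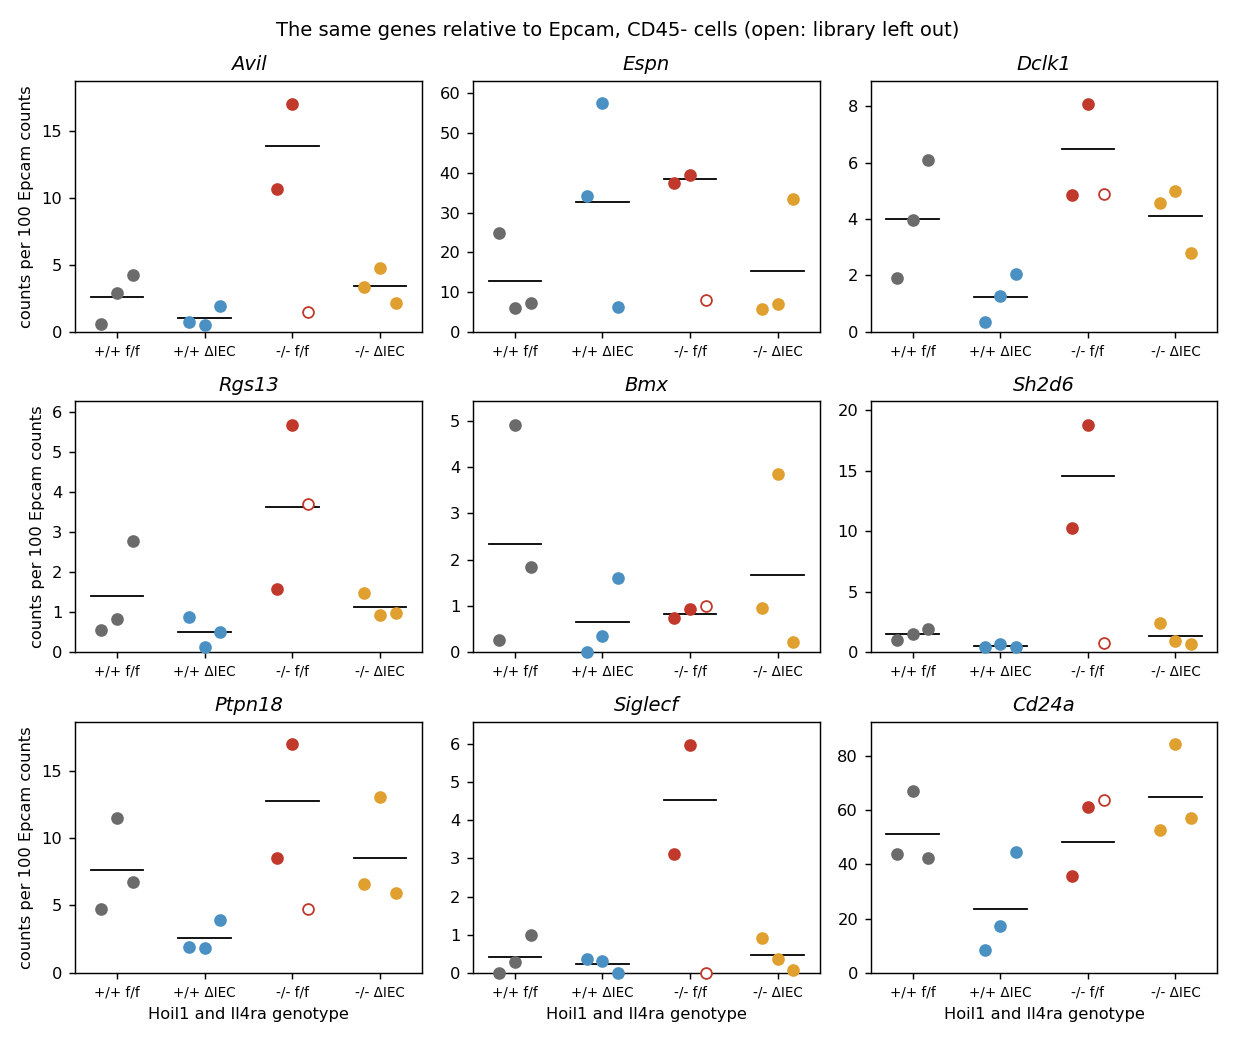
Counts of each of the 9 genes per 100 Epcam counts (y axis, linear from 0) in CD45- libraries of the 4 genotypes (x axis). Points are libraries, open points the library left out, bars the mean of filled points; Avil, Sh2d6 and Siglecf alone keep both Hoil1-/-Il4raf/f points above all other filled points.

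Between the Il4ra genotypes of Hoil1-/- mice, all 9 members had lower fitted values in ΔIEC than in f/f CD45- cells, with a median log2 fold change of -2.63 beside 0.17 over all genes. This contrast shares the 2 Hoil1-/-Il4raf/f libraries with the Hoil1 contrast above. Xist, the transcript of the inactive X chromosome that marks female cells, was at 0 in the 5 listed f/f libraries of CD45- cells and at 202 CPM in the left-out one. It was at 134, 220 and 0 CPM in Hoil1+/+Il4raΔIEC and at 0, 263 and 0 CPM in Hoil1-/-Il4raΔIEC libraries, so the libraries of the 2 Il4ra genotypes were unbalanced in Xist. With Xist as a covariate the median of the members was -2.63, with 0 of 9 positive, and in Hoil1+/+ mice it was -0.13 with 4 of 9 positive. Without that covariate, the differences in Hoil1-/- mice ran from -1.41 ± 0.47 for Cd24a to -5.23 ± 1.81 for Siglecf. In Hoil1+/+ mice, also without it, 2 of 9 were positive and the median was -0.38 beside -0.05 over all genes. The share of all genes with positive values is not given for these Il4ra contrasts, so nothing is read from the counts of members. Whether the Hoil1 difference itself depended on Il4ra was tested across all genes, and edgeR called 0 genes (3409 at an unadjusted p under 0.05, and 1466 called by DESeq2).

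The members were set beside 24 other tuft cell genes, and 23 passed the filter on low counts, which a gene can pass through the group where it is high. Of these, 2 passed the test in the f/f background, where 0.0304% of all genes (5 of 16453, these 2 included) were called higher. These were Trpm5, the cation channel of taste transduction, and Lrmp, an endoplasmic reticulum protein of the same cells. Trpm5 was at 214 and 229 CPM in Hoil1-/-Il4raf/f, 3.09 CPM in its left-out replicate and 7.29 to 17.01 CPM in the other 9, and its log2 fold change was 4.58 ± 0.44 (adjusted p = 0.00756, edgeR). Lrmp was at 64.9, 111 and, left out, 9.81 CPM against 1.36 to 4.58 CPM, with a log2 fold change of 5.48 ± 0.58 (adjusted p = 0.0107, edgeR). Both were also the listed genes called lower in ΔIEC than in f/f Hoil1-/- cells, where 0.0425% of all genes (7 of 16453, these 2 included) were called lower. The log2 fold changes were -4.34 ± 0.43 for Trpm5 (adjusted p = 0.0120, edgeR) and -4.79 ± 0.56 for Lrmp (adjusted p = 0.0301, edgeR). With the left-out library included, edgeR called 0 genes in either contrast. It also called 0 in the first without replicate 1 or 2 of Hoil1+/+Il4raf/f, and 0 in the second without replicate 1 or 2 of Hoil1-/-Il4raΔIEC or with Xist as a covariate, while DESeq2 on the listed libraries called 613 and 1182. Without replicate 1 or 2 of Hoil1-/-Il4raf/f that group held 1 library, so no count of calls is given for those fits. The remaining 21 did not pass, Alox5, the 5-lipoxygenase of leukotriene synthesis, among them (4.72 ± 1.03, adjusted p = 0.153, edgeR) and Pou2f3 (2.86 ± 1.23, adjusted p = 0.371, edgeR). Of the 23 tested, 20 had positive log2 fold changes (median 4.66), and Nrep (-1.22), Tas1r3 (-0.34) and Ptgs1 (-0.03) were negative. Nothing is read from this count because of the filter. Il25, the tuft cell cytokine, did not pass the filter: it was at 2.19 CPM in replicate 2 of Hoil1-/-Il4raf/f and at 0 in the other 23 libraries of both fractions. In the ΔIEC background no tuft cell gene of the list was called, and the single call among all genes (0.00608%) was Rbck1.

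Genes close to the members by family or structure were taken from lists, and in the f/f background 0.0365% of all genes were called and 41.6% were positive. Of 25 relatives (other SH2D adaptors, RGS proteins, doublecortin-like kinases, TEC kinases, PEST phosphatases and Siglecs), 18 were tested, 0 were called and 7 had positive log2 fold changes, with a median of -0.60. Sh2d7, a relative of Sh2d6, had 3.54 ± 0.74 (adjusted p = 0.133, edgeR) and Tec, a relative of Bmx, 2.03 ± 0.73 (adjusted p = 0.353, edgeR), while Rgs16 had -3.13 ± 0.89 (adjusted p = 0.289, edgeR). Of 16 villin family and microvillus genes, relatives of Avil or partners of Espn, 15 were tested and 0 called, 10 with positive values (median 1.71). The 10 enterocyte genes were all positive in the same contrast (median 2.37), and the part of enterocyte content in the microvillus genes was not tested. At this background rate, counts of 0 called say nothing particular of either list. Vil1, the villin gene itself, had 1.89 ± 0.82 (adjusted p = 0.372, edgeR).

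The members' profiles over the 12 CD45- libraries were compared with those of 13927 genes on the log2(CPM + 0.1) scale, as a description only, since the libraries share sorting and cell makeup. Most members were also highest in Hoil1-/-Il4raf/f replicates 1 and 2. Among the 12 genes most like the mean profile (Pearson r from 0.90 to 0.95) were Ethe1, Ighv9-4, Plcg2, Gfi1b, Limd2, Alox5, Ighv1-69, Pik3r5, Snrnp25, Trpm5 and Vav1. Plcg2 (phospholipase C gamma 2) was at 73.4 and 70.9 CPM in the pair and at 7.78 to 26.7 CPM in the other 9 listed libraries. Lrmp, described above, was also at 15.05 to 96.8 CPM in CD45+ libraries, and the part of hematopoietic cells in its CD45- values was not tested. Ighv9-4 and Ighv1-69 are immunoglobulin variable segments, each with similar segments in the genome, so their counts are uncertain. In the pair Ighv9-4 was at 10.7 and 20.8 CPM and Ighv1-69 at 19.9 and 6.70 CPM, and both were at 0 outside it. The B cell sums of the pair were 10.5 and 11.9 CPM. The part of B lineage cells in these values was not tested. Among members, Sh2d6, Ptpn18, Avil and Dclk1 were most like the mean of the other 8 (r = 0.95, 0.94, 0.93 and 0.90), and Espn and Bmx least (r = 0.34 and 0.28).

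In CD45+ cells the members are also described without a test, since the CD45+ values stood beside the CD45- values when they were chosen. Between Hoil1-/- and Hoil1+/+, averaged over the Il4ra genotypes, edgeR called 0.00587% of 17029 genes, namely Rbck1 (-3.81 ± 0.32, adjusted p = 0.00690). Ptpn18 had a fitted log2 fold change of -0.13 ± 0.19 (SE), Avil of 0.34 ± 0.31, Cd24a of -0.44 ± 0.39, Espn of 0.52 ± 0.32 and Siglecf of 0.77 ± 0.48. The other 4 members were at 0 in most CD45+ libraries, so their fitted values are unstable and are not described here. The CD45+ values of Siglecf were 2.36, 5.09 and 7.31 CPM in Hoil1+/+Il4raf/f, 1.92, 5.59 and 4.40 CPM in Hoil1+/+Il4raΔIEC, 12.3 (left out), 10.8 and 3.16 CPM in Hoil1-/-Il4raf/f, and 7.46, 13.3 and 1.14 (left out) CPM in Hoil1-/-Il4raΔIEC, so the groups overlapped. The 7 eosinophil genes summed to 27.4 to 186 CPM in CD45+ cells, with Alox15 the most abundant and Epx at 0, and were highest (186 CPM) in the left-out Hoil1-/-Il4raf/f library. The part of eosinophil content in Siglecf of CD45+ cells was not tested.

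Rgs13, Sh2d6, Dclk1 and Bmx were low in CD45+ cells. Bmx was at 0 to 0.983 CPM in 11 libraries and at 4.45 CPM in the left-out Hoil1-/-Il4raf/f replicate 1. Dclk1 was at 0 in 9 of 12 CD45+ libraries and reached 1.17 CPM, Sh2d6 was at 0 in 9 of 12 and reached 1.27 CPM, and both maxima were in replicate 3 of Hoil1-/-Il4raf/f. Rgs13 was at 0 in 7 of 12 and highest, at 8.21 CPM, in replicate 3 of Hoil1+/+Il4raΔIEC. That library also had the most Cd24a of CD45+ cells, 310 CPM against 65.9 to 146 CPM in the other 11, and the highest B cell sum, 1191 CPM. The part of B cell content in these values was not tested.

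Between the fractions, the values of Hoil1+/+ libraries are given without a test, because the members were chosen on the CD45- values with the CD45+ values beside them. In 1 edgeR fit over the 21 listed libraries, 23.8% of 18778 genes were called higher and 18.6% lower in CD45- cells, and nothing is read from the members against these shares. Dclk1 was at 4.12 to 31.7 CPM in the 6 CD45- libraries and at 0 to 0.260 CPM in the 6 CD45+ libraries, 4 of which were at 0. Sh2d6 was at 2.44 to 10.1 against 0 to 0.433 CPM, and Espn at 17.2 to 512 against 2.65 to 11.6 CPM. The fractions did not overlap for these genes. Bmx was at 0.183 to 13.9 against 0 to 0.482 CPM and Rgs13 at 1.11 to 14.4 against 0 to 8.21 CPM, with ranges that overlapped. Ptpn18 alone was lower in every CD45- library than in every CD45+ library, at 16.1 to 37.0 against 63.3 to 153 CPM (log2 -2.53 ± 0.20, SE). Avil and Cd24a had log2 differences of 0.57 ± 0.30 and 0.28 ± 0.35 (SE), and Siglecf was at 0 to 5.14 against 1.92 to 7.31 CPM, which overlap. Ptpn18 in replicates 1 and 2 of Hoil1-/-Il4raf/f CD45- cells, 113 and 202 CPM, lay inside this CD45+ range in the first and above it in the second.

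**Figure D5:**
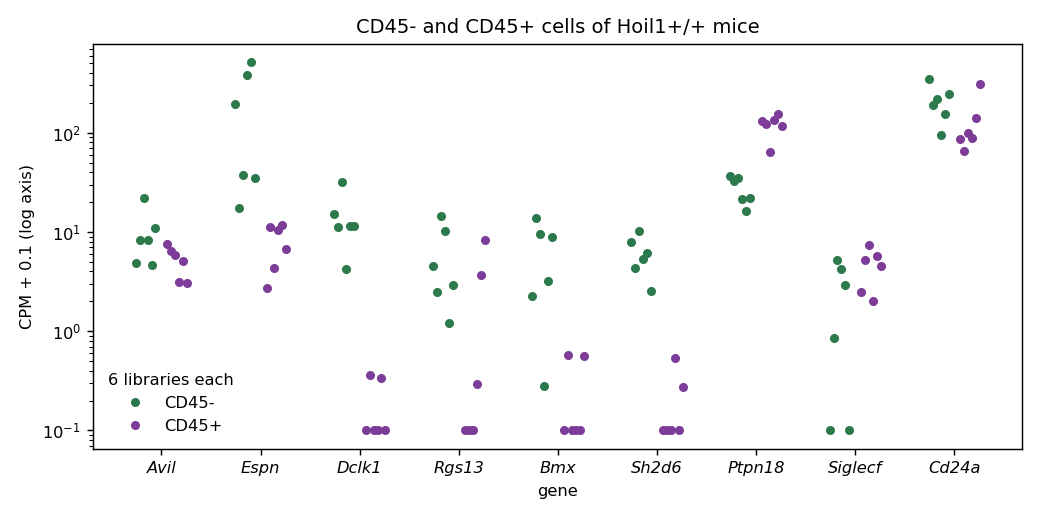
CPM + 0.1 (y axis, log) of each gene (x axis) in the 6 CD45- and 6 CD45+ libraries of Hoil1+/+ mice, one point per library. Dclk1, Espn and Sh2d6 separate with CD45- higher, Ptpn18 with CD45- lower, and the other genes overlap.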

How the data were processed

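RNA of CD45+ and CD45- cells sorted from mouse ileum was sequenced as poly-A libraries. Before deposit the authors clipped adapters (cutadapt), mapped the reads to mm10 (STAR) and assigned them to ENSEMBL genes (featureCounts); the deposited table holds raw counts, as whole numbers, for 39056 genes and 24 libraries. Tool versions and the strand setting are not given in the sources used here, so reads shared with opposite-strand genes cannot be told apart. Symbols came from GENCODE M21 by gene ID (38872 matched).

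Tests used edgeR 4.0.16 (quasi-likelihood) in R 4.3.3 with TMM scaling, genes kept at a minimum count of 10 (minimum total 15) and 1 mean per genotype, on the 11 CD45- and 10 CD45+ libraries of the study's sample list (21 for the fraction comparison). They were two-sided with Benjamini-Hochberg adjustment over all genes tested and a threshold of 0.05. The Hoil1 contrast in f/f CD45- cells and the averaged Hoil1 contrast in CD45+ cells were also run on simulated data, with results not given here. The other contrasts were not run on simulated data. Each SE of an edgeR log2 fold change is its absolute value divided by the square root of the quasi-likelihood F statistic. It is unreliable for genes at 0 in several libraries. CPM are counts per 1000000 counts of the library. The alternatives were all libraries, RLE scaling, no filter (any gene with a count), DESeq2 1.42.0, Xist as a covariate and leaving out each library. Members and lists were chosen with earlier results of these data known. Named were the 9 members, the checks Rbck1, Il4ra, Ptprc and Epcam, listed genes that passed or were most abundant or at 0, and genes among the 12 most like the members; some genes under this rule are not reported here. Promoters came from RefSeq (GRCm38.p6).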

Additional observations from a re-analysis of the deposited data

Results flagged for a closer look

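Espn had differences of opposite sign with Hoil1 in the 2 Il4ra backgrounds of CD45- cells. Against the mean of Hoil1+/+ libraries, the listed Hoil1-/- libraries were all higher in f/f, by 400.2 CPM on average, and all lower in ΔIEC, with a mean difference of -222 CPM. The left-out Hoil1-/-Il4raf/f library had 44.5 CPM, which is inside the Hoil1+/+Il4raf/f range of 17.2 to 196 CPM. The 10 enterocyte genes also had medians of opposite sign (log2 2.37 in f/f and -2.53 in ΔIEC), and their part in Espn was not tested. In the edgeR fit of the interaction, which called 0 genes (3409 at an unadjusted p under 0.05, and 1466 called by DESeq2), the Espn term was -4.83 ± 1.87 (log2, SE), given without a p because Espn was chosen on these values.

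In libraries that the fits did not use, some members exceeded every Hoil1+/+ library of the same fraction. The left-out CD45- Hoil1-/-Il4raf/f replicate 3 had 20.4 CPM of Rgs13 and 352 CPM of Cd24a, while the other 7 members did not exceed the Hoil1+/+ libraries, and relative to Epcam Cd24a did not either (63.7 counts per 100 Epcam counts against up to 67.2). The left-out CD45+ Hoil1-/-Il4raf/f replicate 1 had 4.45 CPM of Bmx, 12.3 CPM of Siglecf and 167 CPM of Ptpn18, while the other 6 members did not exceed the Hoil1+/+ libraries. Each of these is 1 library, with no replicate check.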

How the results depend on the processing

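No paired analysis was possible because the replicate numbers follow accession order and the labels pair no libraries. Ages in the labels match by number between the fractions in both ΔIEC genotypes but not in f/f, and the fraction fit takes all libraries as independent, whether or not they share a mouse. The median log2 difference of the members in CD45- cells was 2.74 (f/f) and 0.07 (ΔIEC). Relative to Epcam it was 1.44 and 1.77, a scale that shifts every gene alike. Without each library in turn the fitted medians were 2.05 to 2.81 and 0.05 to 0.51, and with all 12 libraries the f/f median was 2.21. Counts of called genes moved most. With all libraries edgeR called 0 genes between Hoil1 genotypes in f/f, 0 in ΔIEC and 0 between Il4ra genotypes in Hoil1-/- CD45- cells, and, in CD45+ cells, 2 for Hoil1 on average, 1 in f/f, 1 in ΔIEC and 0 for Il4ra. Without the low-count filter the counts were 11 (CD45- f/f) and 1 (interaction), and 6 and 3 in CD45+ cells (average and f/f). With Xist as a covariate they were 3 (CD45- f/f), 0 (Il4ra in Hoil1-/-) and 0 (Il4ra in CD45+). DESeq2 called 613 (f/f), 138 (ΔIEC), 17 (Il4ra in Hoil1+/+), 1182 (Il4ra in Hoil1-/-) and 1466 (interaction) in CD45- cells, and 126, 93, 159 and 341 in CD45+ cells (Hoil1 on average, f/f, ΔIEC, and Il4ra). The cause was not tested. Leaving out each library gave 0 to 474 calls in f/f (0 without Hoil1+/+Il4raf/f replicate 1 or 2, and 474 without Hoil1-/-Il4raf/f replicate 2), 0 to 2 in ΔIEC, 0 to 576 for Il4ra in Hoil1-/- (576 without Hoil1-/-Il4raf/f replicate 2) and 0 to 1199 for the interaction (1199 without Hoil1+/+Il4raΔIEC replicate 3). In CD45+ cells it gave 1 to 10 (Hoil1 on average), 0 to 7 (f/f) and 0 to 8 (Il4ra). Between the fractions it gave 7147 to 8127 genes.

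CD45+ differences of Dclk1, Bmx and Ptpn18 between Hoil1 genotypes, described without a test, changed sign under some alternatives. Those of Dclk1 and Bmx, at 0 in most CD45+ libraries, are unstable and no estimate of a fold. Dclk1 (-0.70) was 0.0343 with the Xist covariate, 0.17 with DESeq2 and -4.83 to 1.77 with each library left out. Bmx (1.43) was -2.55 to 4.32 and Ptpn18 (-0.13) was -0.21 to 0.0152 with each left out, and Ptpn18 was 0.0787 with all libraries. With each library left out, Avil (0.20 to 0.46), Espn (0.35 to 0.72), Siglecf (0.39 to 1.12) and Cd24a (-0.61 to -0.05) kept their sign. Of the 12 genes most like the members, 8 remained with log2(CPM + 1) and 8 with the 11 listed libraries. The lowest depth, 6028275 counts, sets a limit of 0.498 CPM for a count of 0.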

Other observations

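Fitted values of other cell type lists in CD45- cells are given as a description. In the f/f background all 8 goblet cell genes (median log2 fold change 1.45) had positive fitted values in Hoil1-/- cells, all 6 fibroblast (-0.95), 5 smooth muscle (-1.73) and 6 arterial endothelial genes (-2.65) had negative ones, and 4 of 6 Paneth cell (0.18), 3 of 8 enteroendocrine (-0.12) and 5 of 6 stem cell genes (0.12) were positive. In the ΔIEC background all 6 fibroblast (1.86), 5 smooth muscle (0.93) and 6 arterial endothelial genes (0.31) were positive. There 3 of 8 goblet (-0.50), 1 of 6 Paneth (-0.94), 3 of 8 enteroendocrine (-0.47) and 2 of 6 stem cell genes (-0.32) were positive. By edgeR 0 of these listed genes were called in either background; over all genes, 2161 (f/f) and 1261 (ΔIEC) had an unadjusted p under 0.05, and DESeq2 called 613 and 138.

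Immune markers were low in CD45- cells. The 6 general hematopoietic genes summed to 1.46 to 47.7 CPM there, against 2061 to 3852 CPM in CD45+ cells. In the pair of Hoil1-/-Il4raf/f libraries with the most tuft cell RNA they summed to 18.4 and 40.1 CPM, above the median of 12.5 CPM over the 12 libraries, and in the left-out replicate 3 to 47.7 CPM. Ptprc and Cd52 were highest in this pair (Cd52 at 7.28 and 6.74 CPM against 0 to 2.90 CPM in the other 10). The part of immune cells in the values of the pair was not tested.

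Il17rb, the receptor of interleukin 25 and a gene of both tuft cells and type 2 innate lymphoid cells, had a log2 fold change of 3.79 ± 0.51 between Hoil1-/- and Hoil1+/+ CD45+ cells and did not pass (adjusted p = 0.0968, edgeR). All 7 type 2 innate lymphoid cell genes of the list were positive in this contrast (median 2.88) and 0 of 7 passed, with Nmur1 at 3.77 ± 0.51 and Klrg1 at 2.88 ± 0.40 (both adjusted p = 0.0968, edgeR), beside 45.1% of all genes positive. The part of these cells in Il17rb was not tested.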
